A study of Mus musculus with 2 samples.

Results

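Prmt8, Syt13, Necab1, Bhlha15, Tmem132c and Thbd are 6 genes with no well-known role in the ureter, in a study of cultured embryonic mouse ureters. They were chosen by their measured ratios, about 4-fold and of the same sign on each of the 2 arrays. Their probes were found by the gene name of the array's non-control probes, which gave 6 probes, 1 for each gene, among 39429 probes and 22311 genes or unnamed features that were bright enough to be tested. Ureters of wild-type NMRI embryos of mixed sex (E13.75, embryonic age in days) were kept on membranes for 18 h, either in medium with NOGGIN (10 µg/ml) or in plain medium as control. NOGGIN is an extracellular antagonist of bone morphogenetic proteins (BMPs) and blocks their access to receptors. RNA (200 ng of total RNA per labelling) was hybridised to 2 two-colour arrays that paired 1 NOGGIN with 1 control sample: on array 1 the labels give NOGGIN the green dye and control the red dye, and on array 2 the reverse. The labels number the pairs but do not say that they came from separate litters, so the spread between the arrays may be technical. The tissue markers of the ureter were present: all 16 urothelial and all 12 ureteric mesenchyme markers on a fixed list were well above background in both channels of both arrays.

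Every ratio here is a log2 value that sets the channel labelled NOGGIN over the one labelled control, so a negative value is lower in the channel labelled NOGGIN. The direction is not settled by the sources. Id1, a transcriptional regulator that BMP-SMAD signalling induces, had a log2 ratio of 2.14 ± 0.09 (SD, n = 2), higher in the channel labelled NOGGIN. The authors' deposited table gives Id1 signed folds of -4.65 (array 1) and -4.53 (array 2). The sample titles name NOGGIN before control, and a table read that way has the opposite direction. Id1 is then lower with NOGGIN, the direction that a block of BMP signals would give, and the 6 genes are higher. The 6 genes lay on the other side from Id1 in the scanner ratios and in the authors' deposited values, which describe the same 2 arrays. That opposition does not depend on which reading of the dyes is right. If the dye labels are exchanged, all signs turn and all sizes stay.

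As background, the 6 genes have no shared family. Prmt8 encodes an arginine methyltransferase that is anchored at the plasma membrane and is known mainly from neurons. Syt13 encodes an atypical synaptotagmin, a membrane trafficking protein that lacks the calcium-binding residues of the classical members, and Necab1 encodes an EF-hand calcium-binding protein of neurons. Tmem132c encodes a single-pass membrane protein of a small family whose function is little known. Bhlha15 encodes MIST1, a basic helix-loop-helix transcription factor of secretory cells that binds E-boxes. Thbd encodes thrombomodulin, the endothelial receptor through which thrombin activates protein C, also present on mesothelium. BMP signals reach the nucleus through SMAD proteins, which bind short GTCT boxes and GC-rich elements in DNA.

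The probe of Prmt8 is shown because its 60 bases cover 761 bases of the genome, so it crosses an intron and reads spliced RNA. It lies at chr6:127639914-127640674 (mouse build mm9, minus strand, as the files give it) and starts at base 1466 of the transcript. The letters, 5′ to 3′, are given in lower case.
Prmt8 probe: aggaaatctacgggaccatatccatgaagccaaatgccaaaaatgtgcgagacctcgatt
The other 5 probes are 60 bases that lie unbroken in the genome, all in mm9: Syt13 at chr2:92795818-92795877 (plus strand), Necab1 at chr4:14882135-14882194 (minus), Bhlha15 at chr5:144955175-144955234 (plus), Tmem132c at chr5:128046038-128046097 (plus) and Thbd at chr2:148230235-148230294 (minus). Exons and untranslated regions in mm9 were not analysed here.

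RefSeq promoter sequence of build GRCm38.p6 was matched for 3 of the 6 genes, Prmt8, Bhlha15 and Tmem132c. These promoters are shown because the genes lay together on the side opposite to the BMP targets. The 250 bases before the transcription start are printed 5′ to 3′ on the strand of the gene, and capitals mark each GTCT box on either strand (AGAC on the printed strand is the reverse complement). They lie at chr6:127769156-127769405 (minus strand, the first of 2 listed starts of Prmt8), chr5:144190036-144190285 (plus, Bhlha15) and chr5:127241576-127241825 (plus, Tmem132c).
Prmt8 promoter: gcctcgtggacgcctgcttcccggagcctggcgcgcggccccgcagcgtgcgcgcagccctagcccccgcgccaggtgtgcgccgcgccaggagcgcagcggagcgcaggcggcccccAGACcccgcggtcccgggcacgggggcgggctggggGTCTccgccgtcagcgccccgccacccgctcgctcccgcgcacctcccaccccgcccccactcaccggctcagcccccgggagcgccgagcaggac
Bhlha15 promoter: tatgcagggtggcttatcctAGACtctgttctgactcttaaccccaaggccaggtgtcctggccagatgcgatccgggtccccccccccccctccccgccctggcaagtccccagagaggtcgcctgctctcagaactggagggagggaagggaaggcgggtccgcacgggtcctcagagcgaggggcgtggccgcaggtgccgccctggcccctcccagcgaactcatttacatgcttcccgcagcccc
Tmem132c promoter: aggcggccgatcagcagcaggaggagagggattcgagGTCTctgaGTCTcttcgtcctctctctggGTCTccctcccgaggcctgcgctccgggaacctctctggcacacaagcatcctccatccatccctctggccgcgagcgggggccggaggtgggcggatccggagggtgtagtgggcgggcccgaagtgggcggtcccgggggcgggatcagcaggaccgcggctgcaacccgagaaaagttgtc
Over the full 300 bases, which run 50 past the start, the Prmt8 promoter held 2 GTCT boxes, that of Bhlha15 held 1 and that of Tmem132c held 3. Of 32851 promoters of that length, 87.98% held at least 1, so a box is the usual case. None of the 3 held GGCGCC, the GC-rich SMAD element, which 11.87% of all promoters held, and none held the palindrome GTCTAGAC (0.21%), which itself contains the box. The E-box CANNTG was found 3 times for Bhlha15, 1 time for Prmt8 and 0 times for Tmem132c, and 72.31% of all promoters held it. Its forms CAGCTG (16.3% of all promoters) and CATATG (3.91%), which CANNTG includes, were in none of the 3. Motifs were searched on both strands. These matches describe the letters in the window and do not show a binding site.

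On array 1 and on array 2 all 6 genes had the lower level in the channel labelled NOGGIN, by 3.21-fold to 5.06-fold on any 1 array. That is also the property they were chosen for. Of all 22311 genes 1.25% were at least 1.5-fold lower on both arrays, 0.941% were at least 1.5-fold higher and 2.19% were either, and nothing is read from the count of 6 against these shares. Signals below are the scanner software's processed signals, corrected for background and dye, in arbitrary units and as the mean of 4 spots. They can be set side by side for 1 gene but not between genes, since each probe has its own efficiency.

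Among the genes known from neurons, Prmt8 had processed signals of 13.2 and 13.4 in the channels labelled NOGGIN of arrays 1 and 2, against 134 and 151 in those labelled control. The values within each group lay close together. Its log2 ratio was -2.24 ± 0.14 (SD, n = 2), with -2.15 on array 1 and -2.34 on array 2, or 4.73-fold lower. That estimate adds an offset of 50 to each channel, which draws dim spots together. On the processed signals the log2 ratio was -3.45, and it was -2.92 with the offset at 0. In the authors' deposited table the signed folds were 10.3 and 10.5. On array 2 the NOGGIN channel had only 2 of 4 spots of Prmt8 well above background, and there the mean spot signal was 1.52 times its local background, so the size is uncertain and its SD leaves that out.

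Necab1 had processed signals of 26.1 and 20.03 in the channels labelled NOGGIN, against 203 and 125 in those labelled control. The control value of array 1 was the highest of the 4. The log2 ratio was -2.05 ± 0.20 (SD, n = 2), with -2.18 on array 1 and -1.91 on array 2, or 4.13-fold lower, and -2.80 on the processed signals. All 4 spots were well above background in every channel, but on array 2 the NOGGIN channel stood only 1.71 times above its local background.

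Syt13 had processed signals of 799 and 802 in the channels labelled NOGGIN, against 2815 and 4099 in those labelled control. On this scale the NOGGIN values were nearly equal while the control values differed. The log2 ratio was -2.07 ± 0.29 (SD, n = 2), with -1.87 on array 1 and -2.28 on array 2, or 4.21-fold lower. It was -2.08 on the processed signals.

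Tmem132c had processed signals of 739 and 876 in the channels labelled NOGGIN, against 3027 and 3479 in those labelled control. On this scale the values of both labels were higher on array 2. Its log2 ratio was -2.02 ± 0.18 (SD, n = 2), with -2.14 on array 1 and -1.89 on array 2, or 4.05-fold lower, and -2.01 on the processed signals.

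The secretory transcription factor gene Bhlha15 had processed signals of 18.4 and 20.3 in the channels labelled NOGGIN, against 120 and 197 in those labelled control. The control value of array 2 was the highest of the 4. The log2 ratio was -2.02 ± 0.35 (SD, n = 2), with -1.78 on array 1 and -2.27 on array 2, or 4.06-fold lower. It was -2.95 on the processed signals. On array 1, 1 of its 4 spots was marked as an outlier by the scanner software. It was left out of the log2 ratios, while the processed signals of each channel are means of all 4 spots.

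The thrombomodulin gene Thbd had processed signals of 347 and 575 in the channels labelled NOGGIN, against 1720 and 2014 in those labelled control. The NOGGIN value of array 2 was the higher one, and this gene differed most between the arrays. The log2 ratio was -2.01 ± 0.46 (SD, n = 2), with -2.34 on array 1 and -1.68 on array 2, or 4.03-fold lower, and -2.06 on the processed signals. Spots of the same array lay closer together than the arrays: the SD over 4 spots was 0.28 on array 1 and 0.07 on array 2.

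**Figure D1:**
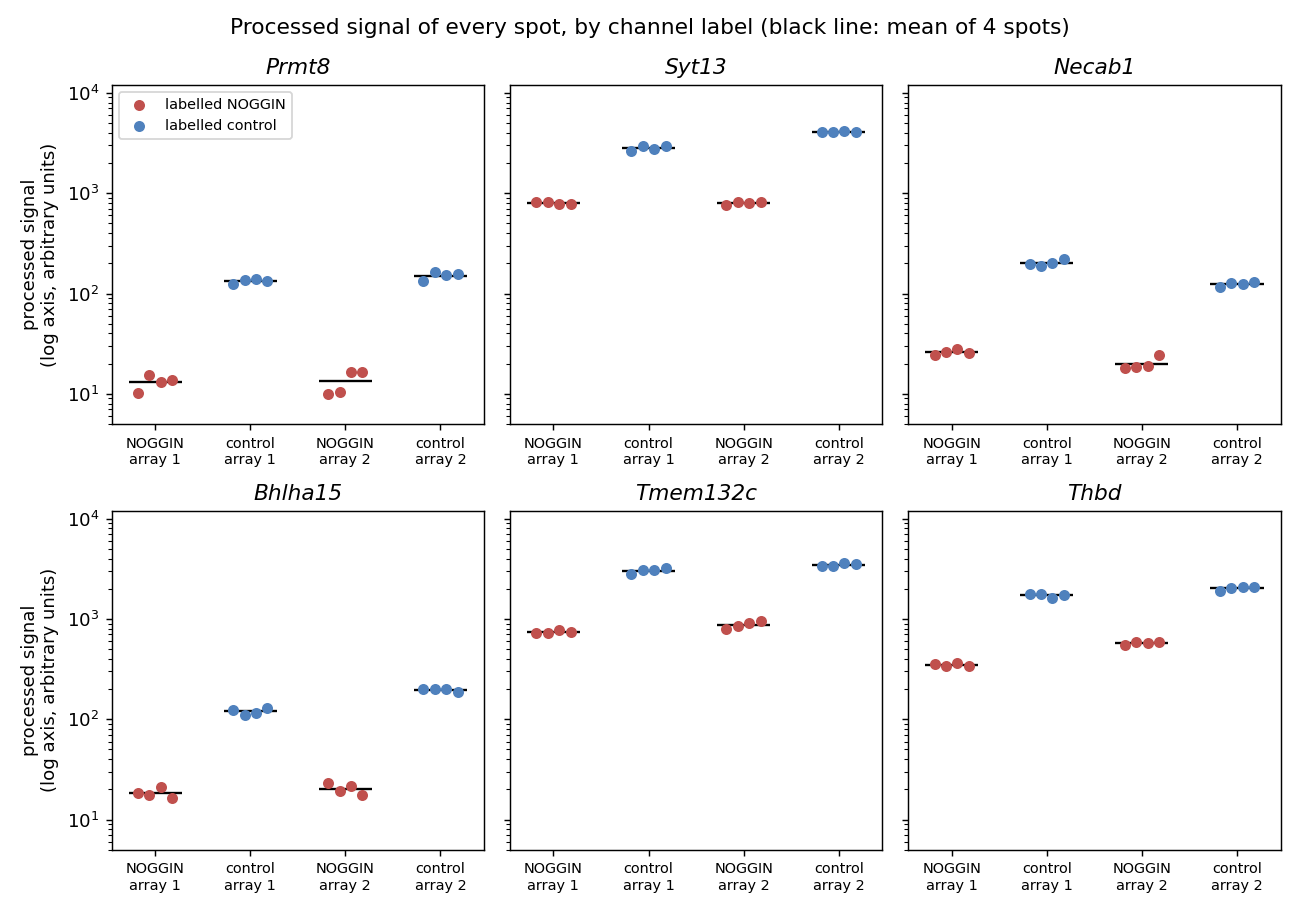
Processed signal of each spot (arbitrary units, log axis) for the 6 genes, in the channels labelled NOGGIN and control of arrays 1 and 2; points are the 4 spots and black lines their means, outlier spots included. On each array all NOGGIN spots lie below all control spots, which the choice of genes by ratio made likely. Prmt8, Necab1 and Bhlha15 are dim while Syt13, Tmem132c and Thbd are bright on their own probes.

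With the offset at 50 the 6 genes had no clear order of size. The means ran from -2.24 for Prmt8 to -2.01 for Thbd, a range of less than 1 SD for Thbd, Bhlha15 and Syt13. The order also turned between the arrays: Thbd had the largest ratio on array 1 and the smallest on array 2, while Syt13 and Bhlha15 went the other way. No neighbours in that order differed beyond their spread. On the processed signals, which carry no offset, Prmt8 (-3.45), Bhlha15 (-2.95) and Necab1 (-2.80) had larger ratios than Syt13 (-2.08), Thbd (-2.06) and Tmem132c (-2.01). The shared sign on both arrays, across the exchange of dyes, was part of how the genes were chosen.

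Genes that were not picked lay in the same range. Ordered by the weaker of their 2 ratios, 17 genes were lower on both arrays at least as far as Thbd, the weakest of the 6, which was 3.21-fold lower on its weaker array, and 11 of these were other genes. The first gene below Thbd was Tnnt2, a troponin gene, with 3.05-fold on its weaker array. In the plot of array 1 against array 2 the 6 genes form a small group at the lower left.

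**Figure D2:**
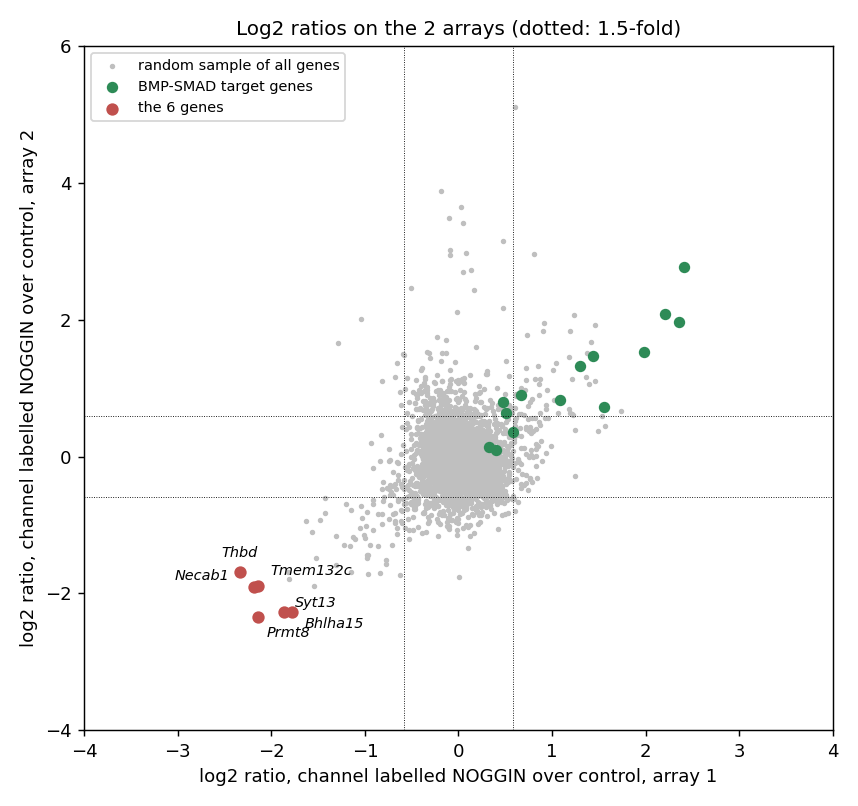
Log2 ratio (channel labelled NOGGIN over control) on array 1 against array 2 for the 6 genes, for 14 BMP-SMAD target genes and for a random sample of all genes; dotted lines mark 1.5-fold. The 6 genes lie between -2.34 and -1.68 on both axes, and the BMP targets lie above 0 on both.

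How large the difference was depended on the background correction for the dim genes and not for the bright ones. With the offset at 0 in place of 50, the log2 ratio of Prmt8 was -2.92, that of Necab1 -2.54 and that of Bhlha15 -2.50. Syt13, Tmem132c and Thbd had -2.09, -2.04 and -2.05. In the authors' deposited table Necab1 had signed folds of 7.79 and 6.71 and Bhlha15 had 6.396 and 9.85. For Thbd the authors' deposited table has 4.92 and 3.55, for Syt13 3.53 and 5.08, and for Tmem132c 4.22 and 3.96. In these settings the 3 bright genes had mean sizes near 4-fold, while for the 3 dim genes that size was the lower end. The genes were chosen for ratios of about 4-fold on these same arrays, so sizes near 4-fold were largely fixed by the choice.

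**Figure D3:**
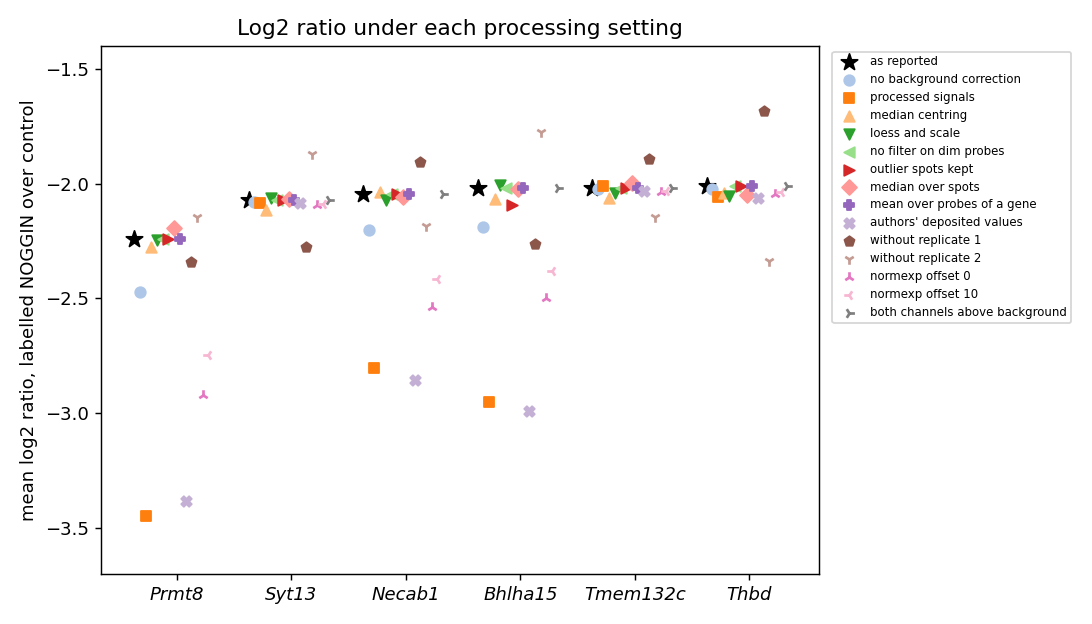
Mean log2 ratio (channel labelled NOGGIN over control) of the 6 genes under each processing setting; the star is the reported value and single arrays appear as the settings that leave out replicate 1 or 2. Values of Prmt8 reach -3.45, while those of Tmem132c stay between -2.14 and -1.89.

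Relatives of the 6 genes were examined with lists of 94 family and pathway genes, of which 86 were measured. By the 1.5-fold rule 1 was higher and 6 were lower on both arrays, that is 8.14% of them against 2.19% of all genes, with a median log2 ratio of -0.06 against -0.01 over all genes. With limma, 0 of them passed the adjusted p threshold of 0.05 (lowest adjusted p = 0.105 in these lists), as did 0 genes of the whole table (lowest adjusted p = 0.073). At an unadjusted p of 0.05, 11 of the 86 passed (12.8%), against 6.04% of all genes. The values of single relatives below are therefore given as values. List medians had opposite signs on arrays 1 and 2 for synaptotagmins (0.04 and -0.19), MIST1 partners and targets (0.02 and -0.15) and the thrombin and protein C system (0.04 and -0.21).

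Of 12 arginine methyltransferases and partner proteins, all measured, 0 were past 1.5-fold on both arrays, and the median was 0.00. Since 2.19% of all genes were past it, a count of 0 among 12 says little. The widest mean was that of Carm1, another arginine methyltransferase, at -0.46 ± 0.76 (SD, n = 2), with 0.08 on array 1 and -0.995 on array 2, so its sign was not shared between the arrays.

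Among synaptotagmins and related double C2 proteins, 26 of 27 were measured, with a median of -0.07. By the 1.5-fold rule 1 was higher on both arrays and 0 were lower. With 2.19% of all genes past it in 1 direction, a count of 1 among 26 says little. The higher one was Syt1, the fast calcium sensor of synaptic vesicle release, with log2 ratios of 1.28 on array 1 and 1.36 on array 2. It lay on the side opposite to its relative Syt13 (adjusted p = 0.105 for Syt1 in limma's test).

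Among NECAB proteins and other EF-hand calcium buffers and sensors, 12 of 14 were measured, 0 were higher and 1 was lower, with a median of -0.05. Over all genes 1.25% were lower by this rule, and a count of 1 among 12 says little. The lower one was Vsnl1, a neuronal calcium sensor, with -1.27 on array 1 and -1.33 on array 2 (adjusted p = 0.105, limma). It ran to -2.14 under other settings. The closest relatives of Necab1, chosen here after their values were seen, had smaller means of -0.19 (Necab2) and -0.24 (Necab3).

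All 4 other members of the TMEM132 family were measured, with a median of -0.47. Of these, 2 passed 1.5-fold as lower on both arrays, against 1.25% of all genes, and 0 as higher. Tmem132d had -0.65 and -1.09 on arrays 1 and 2, and Tmem132e had -0.62 and -0.95 (adjusted p = 0.275 and 0.302, limma). The means of the remaining pair were -0.16 for Tmem132a and 0.14 for Tmem132b. A second, dimmer probe of Tmem132d had -0.64 and -0.56 on arrays 1 and 2 (mean -0.60), so on array 2 it fell just short of 1.5-fold. With median centring in place of loess 0 of the 4 passed as lower, and with the median over spots 1 did.

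Of 14 partners and known targets of MIST1, 13 were measured and 0 were past 1.5-fold on both arrays, with a median of -0.07. With 2.19% of all genes past it, a count of 0 among 13 says little. The widest mean was that of Tcf3, an E protein with which such factors pair, at -0.39 ± 0.88 (SD, n = 2). Tcf3 had 0.23 on array 1 and -1.01 on array 2, and its second, dimmer probe had -0.04 and -0.34.

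In the thrombin and protein C system, 19 of 23 were measured, with a median of -0.07. By the 1.5-fold rule 0 were higher and 3 were lower, against 1.25% of all genes lower. F3, tissue factor, the cellular starter of coagulation, had -1.21 on array 1 and -1.08 on array 2, and its second probe had a mean of -0.93. Proc, the protein C that thrombomodulin helps to activate, had -1.05 and -1.04. The adjusted p-values in limma's test were 0.127 for F3 and 0.148 for Proc. Procr, the protein C receptor (chosen here after its values were seen), had 0.18 and 0.99, on the side opposite to Thbd.

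**Figure D4:**
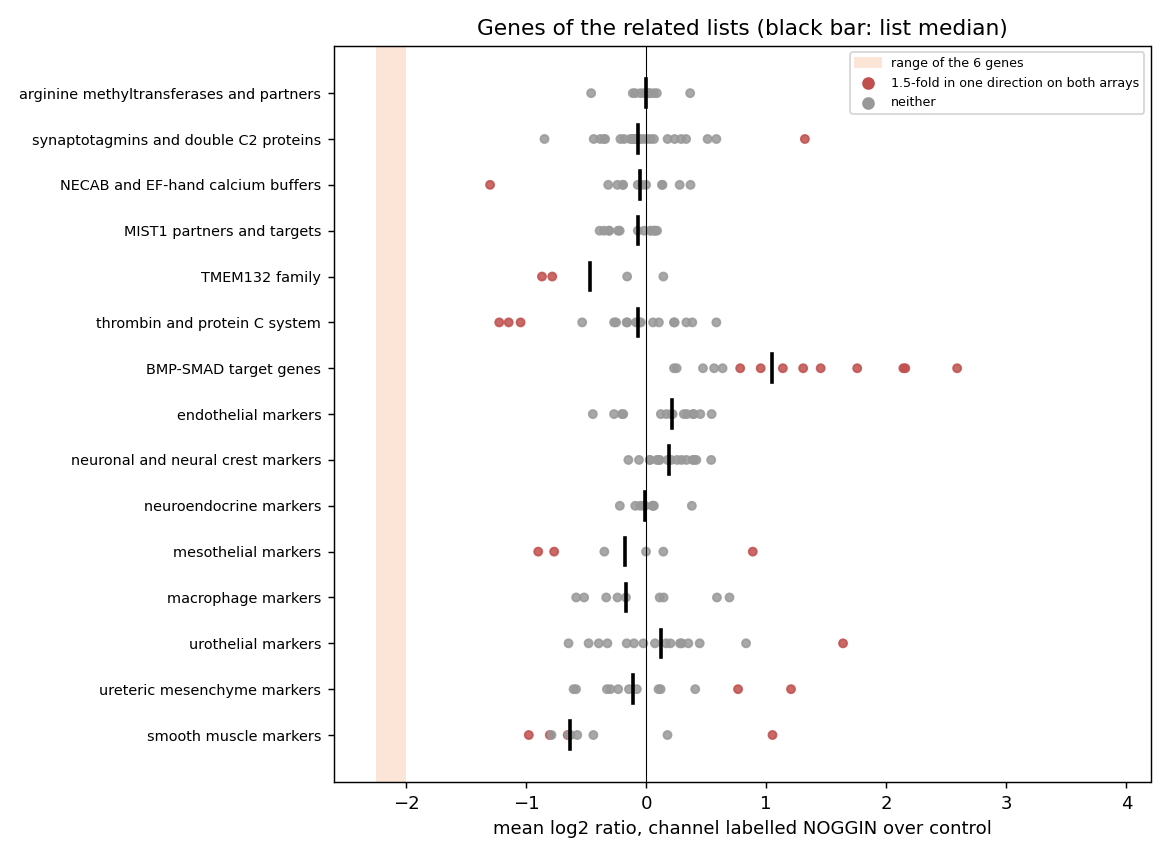
Mean log2 ratio (channel labelled NOGGIN over control) over 2 arrays of each measured gene of the family, BMP target and cell type lists; red points are at least 1.5-fold in one direction on both arrays, black bars are list medians, and the shaded band is the range of the 6 genes. The shaded band, from -2.24 to -2.01, holds none of the listed relatives or markers, which the choice of the 6 genes by ratio made likely.

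BMP-SMAD target genes lay on the other side from the 6 genes. Of 14 measured, 9 passed 1.5-fold as higher on both arrays, against 0.941% of all genes, and 0 as lower, with a median of 1.05. All 14 had ratios above 0 on both arrays, against 20.4% of all genes. Id2, a relative of Id1 that also blocks such factors from binding DNA, had 2.41 and 2.77, and Smad9, a receptor-regulated SMAD, had 2.36 and 1.96.

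Markers of cell types in which the 6 genes are known were set beside them, since in a whole organ fewer cells of a type and less RNA per cell cannot be told apart. Of 16 neuronal and neural crest markers, all above background, 0 were past 1.5-fold on both arrays, 10 were above 0 on both and 0 were below 0 on both. Their median was 0.19, and their mean normalised log2 signal was 12.2 and 11.7 in the channels labelled NOGGIN, against 11.9 and 11.7 in those labelled control. Of all genes, 20.4% were above 0 on both arrays and 23.3% below 0 on both. Only 2.19% were past 1.5-fold in 1 direction on both, so 0 calls in a list this short says little. The list median was 0.41 on array 1 and 0.08 on array 2. Of the neuronal genes, Gap43 had log2 ratios of 0.66 and 0.12 on arrays 1 and 2, and Stmn2 had 0.43 and 0.65. Of 9 measured neuroendocrine markers 0 were past 1.5-fold on both arrays. Their median of -0.01 averaged arrays of opposite sign, with 0.34 on array 1 and -0.31 on array 2. Chgb had 0.64 and -0.66, Isl1 had -0.03 and -0.01, and Scg2 had 0.50 and 0.26. The list signal was 11.1 and 10.4 in the channels labelled NOGGIN, against 10.8 and 10.6 in those labelled control.

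Endothelial markers belong to the cell type best known for Thbd. Of 14, 0 were past 1.5-fold on both arrays, against 2.19% of all genes. On both arrays 8 were above 0 and 3 were below 0, with a median of 0.22. Kdr had 0.37 and -0.12 on arrays 1 and 2, Egfl7 had 0.68 and 0.12, and Ptprb had 0.58 and 0.51. A second, dimmer probe of Kdr had 0.16 and 0.45. The list signal was 11.7 and 11.7 in the channels labelled NOGGIN, against 11.5 and 11.6 in those labelled control. Of 6 measured mesothelial markers, 3 were below 0 on both arrays and 2 were above, with a median of -0.17. Wt1 (-0.90) and Lrrn4 (-0.77) were at least 1.5-fold lower on both arrays, Upk3b (0.89) was higher and 3 were neither. Krt19, which urothelium also makes, had 0.30 on array 1 and -0.30 on array 2. The mesothelial list signal was 10.5 and 10.4 in the channels labelled NOGGIN, against 10.6 and 10.6 in those labelled control, and its part in the ratio of Thbd was not tested. Macrophage markers had 0 of 9 past 1.5-fold on both arrays (median -0.17). Cd68 had -0.28 and -0.38 on arrays 1 and 2, Csf1r had -0.02 and -0.45, and Adgre1 had 0.11 and 1.27. The macrophage list signal was 9.97 and 10.5 in the channels labelled NOGGIN, against 10.1 and 10.4 in those labelled control.

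Markers of the ureter wall mostly had smaller ratios than the 6 genes, which the choice of those genes by ratio made likely. Of 16 urothelial markers 1 was higher on both arrays, Pparg (1.64), a nuclear receptor of urothelial differentiation, and 0 were lower; the keratins Krt8 and Krt18 had 0.30 and 0.17. Of 12 ureteric mesenchyme markers 2 were higher and 0 were lower, with means of 1.21 for the transcription factor Sox9, -0.23 for Lum and -0.58 for Col1a1. For comparison, the 1.5-fold rule called 0.941% of all genes higher and 1.25% lower, and 23.3% had both ratios below 0. Of 10 smooth muscle markers 1 was higher and 3 were lower, with a median of -0.64, and 8 were below 0 on both arrays. Tagln had -1.14 and -0.81 on arrays 1 and 2, Acta2 had -1.39 and -0.18, and Myocd had 1.17 and 0.94. Their list signal was 11.5 and 11.6 in the channels labelled NOGGIN, against 12.0 and 11.9 in those labelled control, and the part of smooth muscle in the ratios of the 6 genes was not tested.

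The gene most like each of the 6 was taken as the one with the smallest Euclidean distance between the pairs of log2 ratios, over 2 arrays and 16299 named genes. For Prmt8 it was Irs4, an adaptor of insulin signalling, at a distance of 0.11, and for Necab1 it was Irs4 again at 0.35. The probe of Irs4 used here, like that of Prmt8, was not above background in both channels of both arrays, and its other kept probe had a mean of 0.02. With the offset at 0 Irs4 had -3.24, against -2.92 for Prmt8 and -2.54 for Necab1, so these distances depend on the offset. For Syt13 it was Bmp2, a BMP ligand, at 0.05, and for Bhlha15 it was Bmp2 at 0.11. For Tmem132c it was the sialyltransferase gene St3gal6 at 0.35, and for Thbd it was Tnfaip6, a secreted hyaluronan-binding protein, at 0.29. With 2 values per gene the distance describes these arrays and no more.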

How the data were processed

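RNA of NOGGIN and control ureters was compared within each of 2 two-colour arrays, and each array is 1 replicate; both shared 1 slide and 1 scan. Per the file headers, the deposited scanner files hold spot intensity values (Agilent Feature Extraction; the submitters' processing notes give version 10.7.3.1), with mean signals and local background not normalized, processed signals background-subtracted and dye-normalized, and a log10 ratio of red over green. The authors also deposited a signed fold score per probe, with no normalization given in the sources used here; against red over green, its log2 values had correlations of 0.891 (array 1) and -0.943 (array 2), which by the dye labels is control over NOGGIN.

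Mean signals were corrected by normexp with an offset of 50, normalized by loess within arrays with control spots at weight 0, and stripped of outlier spots (3.36% and 3.09%), with 0 saturated spots. Values of the 4 spots per probe were averaged. Probes were kept (29649) where a share above 0.5 of the spots was well above background in 1 or both channels, on each array. The brightest kept probe stood for a gene, and 71.8% of probes were named by accession in a GRCm38.p6 table, used for names only. The log2 ratios were fitted with limma 3.58.1 (R 4.3.3), with 1 residual and 4.35 prior degrees of freedom. Two-sided p-values were adjusted over 22311 genes (Benjamini-Hochberg). No p is given for the 6 genes, which were chosen by these ratios.

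The members and lists were chosen with earlier results of these data known. Genes named from lists are, for family and BMP target lists, up to 3 past 1.5-fold with the largest mean, or the widest mean if none passed; for cell types, the 2 brightest and the widest mean; and for each of the 6 genes the nearest gene. A few genes that the rule names are not reported here. Other names are marked as chosen after their values were seen, or complete a count. Alternatives covered background correction, normalization, thresholds, filter, spots, variance model, choice of probe, single arrays and the authors' values. The number of arrays limits the precision.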

Additional observations from a re-analysis of the deposited data

How the results depend on the processing

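In the 15 other settings tried, all 6 genes stayed at least 1.5-fold lower in the channel labelled NOGGIN, with 1 exception. Where a signal above background was required of both channels, 5 were left, since the probe of Prmt8 dropped out. Of 83 values of single genes, 0 turned sign. The genes were chosen for large ratios on both arrays, so this outcome was largely fixed by the choice. Averaging over the probes of a gene could not change them, since each has 1 probe. The count of all genes past 1.5-fold, 488 as reported, was 149 at 2-fold and 852 from processed signals, and either array alone gave 961 to 2631. The 7 family genes were 4 at 2-fold and 11 from processed signals, with 8 to 20 from either array alone. At an adjusted p of 0.05 limma called 0 genes (1348 at an unadjusted p of 0.05). That count was 141 with trend and robust variance, 114 with median centring, 100 with signal above background required of both channels, 43 at an adjusted p of 0.1, 35 without background correction, 22 when outlier spots were kept, and 119 and 129 with normexp offsets of 0 and 10, which were chosen after the data were seen; it stayed 0 in the other settings. The causes were not tested. Of 546 values of 39 other named genes, 19 turned sign; the only called gene among them was Irs4 (0.015), because its other probe was then used. NOGGIN and control were compared as pairs within each array, and the 1 group of arrays allowed no further pairing. Signal over background limits Prmt8, Necab1 and Bhlha15.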
